A study of Mus musculus with 16 samples.

Results

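DNase-hypersensitive regions of mouse liver that were already open without drug and were more open 27 h after TCPOBOP in both sexes are described here, with what the same regions did 3 h after the drug. They number 500, of 23741 autosomal regions that held a peak in all 8 lists at 27 h and of 61240 regions in the whole series. A region was kept where, in females and in males at 27 h, both TCPOBOP pools exceeded both vehicle pools and the mean log2 difference was 0.6 or more. The values at 27 h therefore chose the regions and are given as a description, with no test. The pools at 3 h had no part in the choice, and the changes tested below are theirs. The spread used in the main tests also drew on the 27 h pools, and an alternative without them is given below.

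The 16 libraries came from livers of CD-1 mice received at 7 weeks of age. The groups were females 27 h after TCPOBOP and their vehicle controls, females 3 h after TCPOBOP and their vehicle controls, and the same 4 groups in males. TCPOBOP was given once by intraperitoneal injection at 3 mg/kg, and every control received the vehicle alone, 1% DMSO in corn oil. Each group had 2 pools, each made from 3 to 5 livers, so that the spread is between pools and no value belongs to a single mouse. Each sex and time was an experiment of its own, with drug and vehicle pools inside it, so a difference between sexes or between times cannot be told apart from a difference between experiments. The 27 h libraries were paired-end with read 1 alone kept, which separates the times in the same way.

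DNase I cuts DNA most readily where nucleosomes are missing or displaced, as at active promoters and enhancers, and a peak of cut fragments marks such a site. TCPOBOP activates CAR, the constitutive androstane receptor, which belongs to the nuclear receptors and is held in the hepatocyte cytoplasm until it is activated. Activated CAR enters the nucleus, binds DNA together with the retinoid X receptor and induces genes of drug metabolism, of which the Cyp2b family is the classical example in mouse liver. Prolonged activation also enlarges the liver.

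Level below means the highest summit pileup of a region in a pool, scaled to 1000000 tags and to the median of the 18443 regions found in all 16 lists. A change is the difference of mean log2 level, TCPOBOP minus vehicle, so that a change of 1 is 2-fold. Library depth ranged over 15679689 to 43618254 tags, with 29216 to 46281 peaks per list, and the deepest libraries were at 27 h. The median member was covered at its summit by 25 to 27.5 tags in the 4 vehicle pools at 3 h and by 41 to 63 tags in the 4 TCPOBOP pools. In whole liver, a higher share of cells of one type and a more open site in each cell cannot be told apart. Regions are given on mouse build mm9. Nearest genes, marker genes of liver cell types and the DNA sequence of the regions were not analysed here, because no mm9 genome or annotation was used.

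At 27 h the members were about 2-fold more open in females and a little less than that in males. Their median change was 1.05 in females (2.07-fold, range 0.60 to 2.99) and 0.87 in males (1.83-fold, range 0.60 to 3.31), against −0.05 and −0.01 over all 23741 eligible regions. Among eligible regions, 2276 (9.59%) had both TCPOBOP pools above both vehicle pools in both sexes, and the size threshold left the 500. The mirror rule, for sites less open after TCPOBOP, kept 260. The members just inside the threshold were at chromosome 16, 96547326 to 96548786, chromosome 5, 146711784 to 146712652, and chromosome 12, 71334461 to 71335693, each with a smaller change of 0.60 between the sexes. Just outside it, also at 0.60 after rounding, lay chromosome 18, 4644145 to 4645057, with chromosome 1, 13689111 to 13690344, as well as chromosome 13, 110405292 to 110406505.

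Without the drug, members were weaker than eligible regions in general. Their median level in the 4 vehicle pools at 27 h was 1.41 (range 0.50 to 6.30), against 2.08 over all eligible regions. With all eligible regions divided into 4 equal classes by that vehicle level, 226 members lay in the lowest class, 143 in the next, 102 in the one above and 29 in the highest. Merged member regions had a median width of 970.5 bp, against 948 bp for eligible regions. The peaks themselves were wider after the drug at 27 h, with a median of 787 bp in TCPOBOP pools and 570 bp in vehicle pools, against 715 and 680 bp for eligible regions. Summits of TCPOBOP and vehicle pools lay a median of 19.5 bp apart, and in 39 members by more than 150 bp. In 362 members (72.4%) each list at 27 h held exactly 1 peak, so for most of them the values compare the same single peak. Levels and peak widths at 27 h come from the pools that chose the members and are descriptive.

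At most of these sites the signal already stood on the higher side 3 h after the injection. In females 393 members had a peak in all 4 pools at 3 h and could be tested, and their median change was 0.62 (1.54-fold), against −0.03 over all 22825 regions tested. The change was above 0 in 367 of the 393 (93.4%). In males 362 members could be tested, with a median change of 0.44 (1.36-fold), against −0.03 over 22908 regions, and 320 (88.4%) were above 0. Both TCPOBOP pools exceeded both vehicle pools in 293 of 393 members in females (74.6%), against 17.0% of all regions tested, and in 236 of 362 in males (65.2%), against 17.7%. The reverse order was seen in 6 members in females and 13 in males, where it held for 21.3% and 23.1% of all regions. In 185 of the 333 members tested in both sexes (55.6%) the TCPOBOP pools stood above the vehicle pools without overlap in both, against 4.45% of all regions tested in both.

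**Figure D1:**
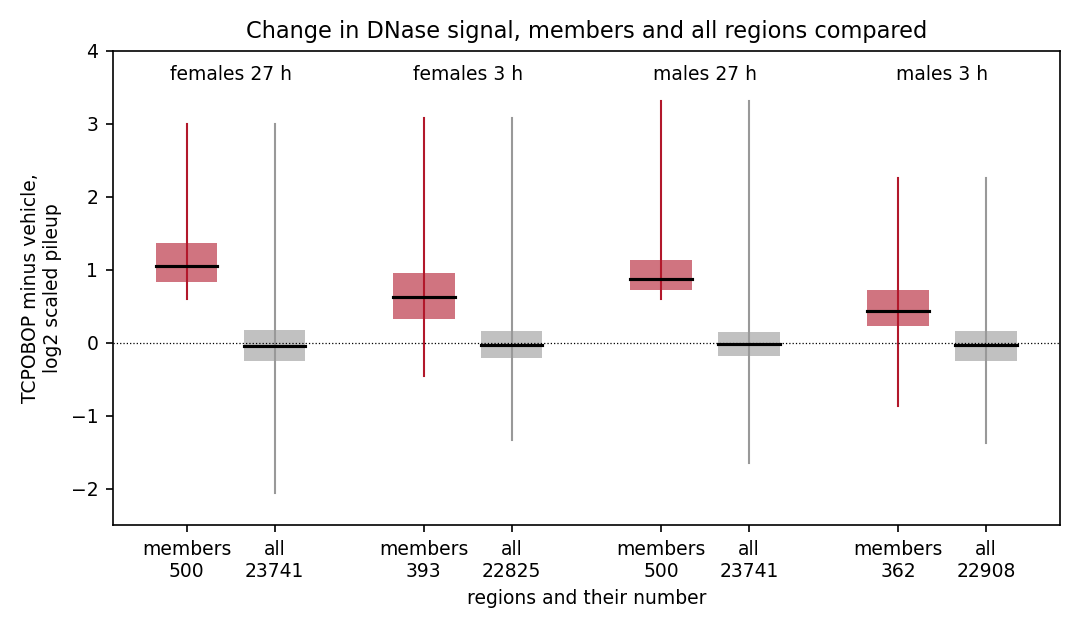
Log2 change in level, TCPOBOP minus vehicle, of the members (red) and of all eligible or tested regions (grey), in females and males at 27 h and 3 h, with their number under each box. The black bar is the median, the box the middle 50% of regions and the line the full range. The 27 h values chose the regions; at 3 h the medians of the members were 0.62 in females and 0.44 in males, with all regions centred near 0.

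Each region was then tested at 3 h with limma, fitted across all regions and with Benjamini-Hochberg adjustment over all of them. Signal was called higher after TCPOBOP in 29.3% of the 393 members tested in females, where 1.04% of all regions tested were called higher. In males it was higher in 61 of 362 members (16.9%), against 0.642% of all regions. With the changes of both experiments averaged, 152 of 333 members were higher (45.6%), against 1.80% of all regions, and the median change of those 333 was 0.54, against −0.03. Members made up 48.3% of all higher calls in females, 41.5% in males and 42.2% in the average.

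No member was called lower by limma in either sex or in the average, where 0.0789% of all regions in females, 0.113% in males and 0.240% in the average were called lower. At an unadjusted p under 0.05, 0 members were lower in females, 4 in males and 0 in the average, against 5.27%, 7.08% and 6.49% of all regions. At the same threshold 249 were higher in females (63.4% of those tested, against 5.72% of all regions), 177 in males (48.9%, against 6.19%) and 231 in the average (69.4%, against 6.78%). The smallest change called higher was 0.68 in females and 0.69 in males, with a median standard error of 0.23 in each sex. A member with a 3 h change near the median of the list was therefore below what 2 pools against 2 could call.

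The spread behind these tests was estimated over all 16 libraries, and the 27 h pools among them had been required not to overlap. With the spread taken from the 8 libraries at 3 h instead, an alternative added after the data were seen, 81 members were higher in females (20.6%, against 0.565% of all regions), 30 in males (8.29%, against 0.236%) and 120 in the average (36.0%, against 1.19%). With the deposited fold enrichment in place of pileup, 10 members were higher in females, 4 in males and 23 in the average. In males 10 were higher with the spread from the 4 male libraries alone. Without centring, 106 of 553 members chosen anew were higher in males, where 291 of all regions tested were. For fold enrichment, the 4 male libraries and each pool left out, the share of all regions called is not given. In males 11 members were called without TCPOBOP pool 1, 29 without TCPOBOP pool 2 and 33 without vehicle pool 2. In females 75 were called without TCPOBOP pool 2, 50 without vehicle pool 1 and 59 without vehicle pool 2.

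The regions chosen by the mirror rule moved less at 3 h. Of those less open at 27 h, 223 could be tested in females and 225 in males, and their median changes were −0.18 and −0.19. In females 3 were called lower by limma (1.35%, against 0.0789% of all regions tested) and 0 higher (against 1.04%). In males 0 were lower (against 0.113%) and 0 higher (against 0.642%). In the average 6 of 209 were lower (2.87%, against 0.240%) and 0 higher (against 1.80%).

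Presence of a peak at 3 h gave a count that does not depend on the pileup test. Of the 500 members, 473 to 491 had a peak in each of the 4 TCPOBOP pools and 405 to 432 in each of the 4 vehicle pools. These were 94.6 to 98.2% and 81 to 86.4% of members, against 91.5 to 96.2% and 87.7 to 89.9% of eligible regions. At 3 h the TCPOBOP libraries were also the deeper ones, with 18543171 to 25383943 tags against 15679689 to 17206999 in vehicle libraries, and the part of depth in these counts was not tested. A peak in both TCPOBOP pools and in no vehicle pool was found at 31 members in females (6.2%, against 1.65% of eligible regions) and at 32 in males (6.4%, against 2.18%). At 10 members this was so in both sexes (2%, against 0.202%). The reverse, both vehicle pools and no TCPOBOP pool, was found at 0 members in females and 0 in males, against 0.337% and 0.139% of eligible regions. No peak at all at 3 h was seen at 3 members in females (0.6%, against 2.35% of eligible regions) and 5 in males (1%, against 1.71%). All of these sites had peaks in every vehicle pool at 27 h, where vehicle libraries were deeper than at 3 h. The numbering of peaks skips 458 to 552 numbers in each list, so a called peak can be absent from a list, and a missing peak need not mean a low level. At chromosome 12, 82029702 to 82030772, for example, 1 female vehicle pool at 3 h stood at 3.09 and 1 male vehicle pool at 2.82, while the other pool of each pair held no peak.

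The site of that kind with the highest level was on chromosome 10, 80420505 to 80421154. At 3 h its level was 12.9 and 9.10 in female TCPOBOP pools and 8.21 and 7.50 in male TCPOBOP pools, with no peak in any of the 4 vehicle pools. At 27 h it was 6.18 and 8.30 in female TCPOBOP pools against 1.73 and 1.92 in vehicle pools, and 8.44 and 9.59 in male TCPOBOP pools against 1.41 and 1.79 in vehicle pools. It was thus at least as high at 3 h as at 27 h in females, while in males the 2 times gave similar levels. The other 9 sites reached 0.852 to 3.73 in female TCPOBOP pools at 3 h and 0.468 to 2.34 in male ones, and 3 of them lie within 20 kb of another member named here.

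The 3 h change was larger at the sites that changed more at 27 h. Members were divided by the smaller of their female and male 27 h changes. Of the 240 members between 0.6 and 0.8, 14.2% of those tested were called higher in females at 3 h, 6.74% in males and 29.7% in the average. Of the 113 between 0.8 and 1, these shares were 28.3%, 17.0% and 48.8%. Of the 112 between 1 and 1.5 they were 44.4%, 25% and 67.2%, and of the 35 at 1.5 or more they were 86.7%, 75% and 94.7%. The median averaged change at 3 h was 0.40, 0.57, 0.77 and 1.24 in these 4 classes. Across the 333 members tested in both sexes the averaged 27 h and 3 h changes correlated at r = 0.582 and rho = 0.467, as a description over regions that share the same pools.

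**Figure D2:**
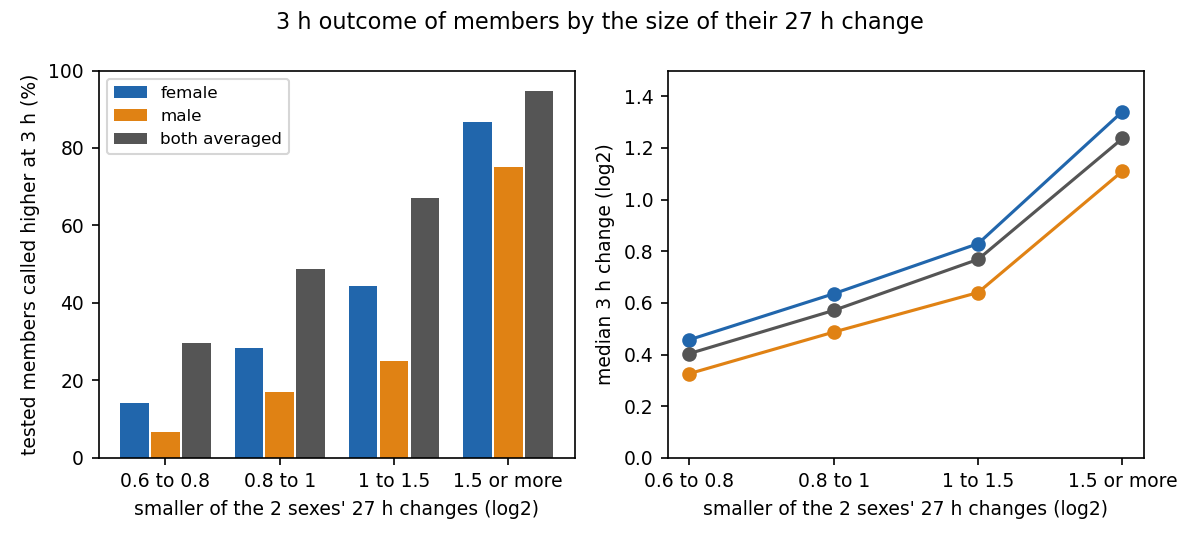
Percentage of tested members called higher at 3 h (left) and their median 3 h change (right, log2, TCPOBOP minus vehicle) in females, males and both averaged, in 4 classes by the smaller of the female and male 27 h changes. Both measures increased from class to class, the averaged median reaching 1.24 in the class at 1.5 or more.

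Whether a member could be tested at 3 h varied with its level in vehicle. In the lowest of the 4 classes of vehicle level 45.1% of members had peaks in all 8 pools at 3 h and could be tested in the average, and 32.4% of those were called higher. In the next class 79.7% could be tested and 46.5% were called, then 87.3% and 60.7%, and in the highest class 96.6% and 42.9%. The median 3 h change of the members that could be tested was 0.43, 0.57, 0.60 and 0.43 in the 4 classes. A member without a peak in some pool at 3 h has no value in these medians. They therefore do not describe the lowest class as a whole. At 27 h, where every member had a value, the median changes were 1.04, 0.96, 0.90 and 0.86, from the pools that chose the members. Across the 333 members the averaged 3 h change and the log2 vehicle level had r = 0.0736 and rho = 0.107. Of the 5 members weakest in vehicle, none was called. One of them, chromosome 12, 71560325 to 71561112, could be tested in both sexes. Its limma changes were 0.62 ± 0.29 in females (adjusted p = 0.435) and −0.62 ± 0.30 in males (adjusted p = 0.370). The other 4 lacked a peak in at least 1 pool at 3 h. Those at chromosome 10, 10196712 to 10197340, and chromosome 13, 97465059 to 97465821, could be tested in females alone. Those at chromosome 11, 78186056 to 78186795, and chromosome 6, 85110239 to 85111086, could be tested in neither sex, so no call was possible there.

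The sexes were compared at 3 h to see whether the same sites responded early in both. Among the 333 members tested in both, 43 were called higher in both sexes (12.9%, against 0.335% of all regions tested in both), with median changes of 1.18 in females and 1.19 in males. A further 55 were called in females and not in males (16.5%, against 0.696%), and 16 in males and not in females (4.80%, against 0.360%). Of the 60 members tested in females alone 17 were called (28.3%, against 1.13% of such regions), and of the 29 tested in males alone 2 were called (6.90%, against 0.273%). The averaged test called 41 more that passed in neither sex alone (12.3%, against 0.656%). Members called anywhere thus numbered 174 of the 422 tested in at least 1 sex (41.2%, against 1.74% of 25752 regions). The remaining members were 178 that were tested in both sexes and called nowhere, 78 that could be tested in neither sex, and others tested in 1 sex and not called.

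The difference between females and males was itself tested and no member passed. Of 333 members 0 were called by limma for a female minus male difference, against 0.00500% of all regions for a higher change in females and 0% for a lower one. At an unadjusted p under 0.05, 35 members had a larger change in females (10.5%, against 5.21% of all regions) and 6 a larger change in males (1.80%, against 5.09%). The median difference was 0.16 for members and −0.01 for all 19981 regions. Its size for members depended on the scaling, which shifts members and all regions alike. Without centring, both medians of the 500 members were 0.63, and the median of all regions was −0.02 in females and 0.15 in males. The median standard error of the difference was 0.32, so differences of the size of the median were not detectable. Female and male changes at 3 h correlated at r = 0.609 and rho = 0.549 over the 333 members and at r = 0.182 and rho = 0.0828 over 19981 regions. At 27 h the corresponding values were r = 0.666 and rho = 0.506 over the 500 members, which the rule chose for a rise in both.

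**Figure D3:**
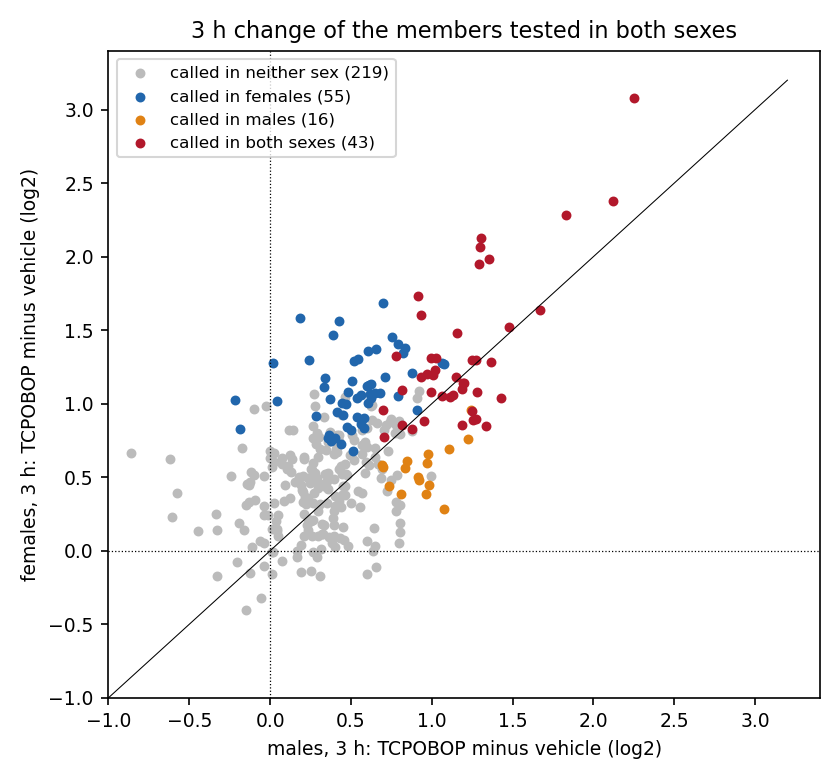
Change at 3 h in females (vertical) against the change at 3 h in males (horizontal; log2, TCPOBOP minus vehicle) for the 333 members tested in both sexes, coloured by the sex in which limma called them higher, with the line of equal change. Of these members, 43 were called in both sexes, 55 in females and not in males, and 16 in males and not in females.

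The member with the lowest p in the averaged test was on chromosome 7, 26672712 to 26673610. At 3 h its level was 6.76 and 8.25 in female TCPOBOP pools against 0.942 and 0.831 in vehicle pools, and 7.27 and 7.33 in male TCPOBOP pools against 1.35 and 1.75 in vehicle pools. At 27 h it was 10.6 and 10.8 in female TCPOBOP pools against 1.55 and 1.45 in vehicle pools, and 8.07 and 8.08 in male TCPOBOP pools against 1.69 and 1.90 in vehicle pools. Every TCPOBOP pool was over 3 times the highest vehicle pool, and the 3 h levels were already close to those at 27 h in males. The averaged 3 h change was 2.66, with a limma adjusted p of 1.93e-13.

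On chromosome 18, 68650572 to 68651869, the level at 3 h was 11.5 and 9.21 in female TCPOBOP pools against 1.95 and 2.30 in vehicle pools, and 5.65 and 5.28 in male TCPOBOP pools against 1.35 and 1.75 in vehicle pools. At 27 h it was 6.67 and 9.89 in female TCPOBOP pools against 0.900 and 1.16 in vehicle pools, and 11.1 and 15.6 in male TCPOBOP pools against 2.04 and 1.68 in vehicle pools. The drug and vehicle pools did not overlap in any experiment. Males had the lower TCPOBOP levels at 3 h and the higher ones at 27 h, an order that cannot be told apart from one of experiments. The averaged 3 h change was 2.06 (adjusted p = 1.65e-09).

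A site on chromosome 14, 40849370 to 40850069, was weak without the drug. At 3 h its level was 3.41 and 2.93 in female TCPOBOP pools against 1.01 and 1.02 in vehicle pools, and 3.78 and 3.94 in male TCPOBOP pools against 1.68 and 0.874 in vehicle pools. The changes of 1.64 ± 0.24 in females (SE, limma adjusted p = 0.000335) and 1.67 ± 0.24 in males (adjusted p = 0.00059) were of about the same size. In males the call was lost with the spread taken from the 4 male libraries alone, where the adjusted p was 0.0540. At 27 h the changes were 2.33 in females and 1.93 in males.

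By contrast, chromosome 8, 107255077 to 107256643, was among the strongest members in vehicle. At 3 h its level was 11.9 and 11.1 in female TCPOBOP pools against 6.05 and 6.64 in vehicle pools, and 11.6 and 10.4 in male TCPOBOP pools against 4.91 and 4.71 in vehicle pools. At 27 h it was 10.5 and 10.3 in female TCPOBOP pools against 5.83 and 5.17 in vehicle pools, and 11.5 and 11.8 in male TCPOBOP pools against 6.26 and 6.75 in vehicle pools. The same modest rise was thus present at both times, with all TCPOBOP pools above all vehicle pools. The 3 h change was 0.85 ± 0.14 in females (adjusted p = 0.000861) and 1.19 ± 0.14 in males (adjusted p = 3.63e-05). Of the 4 other strongest members in vehicle, chromosome 7, 129800901 to 129802019, was called in females (0.84 ± 0.19, adjusted p = 0.0207) and not in males (0.47 ± 0.19, adjusted p = 0.279), and chromosome 12, 82031985 to 82033034, was called only with the experiments averaged (0.48, adjusted p = 0.00887). The remaining pair, at chromosome 13, 46116020 to 46116829, and chromosome 6, 27981348 to 27982420, was called in no test, with averaged changes of 0.31 and 0.38.

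The next sites were named for their low averaged p from among the members called in both sexes. On chromosome 6, 67099388 to 67100258, the change was 1.30 ± 0.16 in females (adjusted p = 2.03e-05) and 1.25 ± 0.16 in males (adjusted p = 8.13e-05), from vehicle levels of 2.76 to 3.83. On chromosome 10, 80421722 to 80422333, it was 1.99 ± 0.16 in females (adjusted p = 1.79e-08) and 1.36 ± 0.16 in males (adjusted p = 4.15e-05). On chromosome 5, 136154385 to 136154891, it was 1.08 ± 0.17 in females (adjusted p = 0.000568) and 1.28 ± 0.17 in males (adjusted p = 0.000206). At that chromosome 5 site the averaged 3 h change, 1.18, was above the 27 h changes of 0.69 in females and 1.14 in males.

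Some members were called at 3 h in females only or in males only, although the difference between the sexes passed the test at none of them. The lowest p among those called in females and not in males was at chromosome 11, 100924423 to 100925620. Its level was 4.84 and 4.10 in female TCPOBOP pools against 1.55 and 1.47 in vehicle pools at 3 h, and 2.77 and 3.39 in male TCPOBOP pools against 2.15 and 2.42 in vehicle pools. The TCPOBOP pools were the higher ones in both sexes, by far less in males. The change was 1.56 ± 0.18 in females (adjusted p = 6.83e-06) and 0.43 ± 0.17 in males (adjusted p = 0.286), a difference of 1.14 ± 0.25 (adjusted p = 0.193). At 27 h the changes were 0.99 in females and 0.74 in males.

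The lowest p among those called in males and not in females was at chromosome 17, 31610755 to 31611985. Its level at 3 h was 6.18 and 7.08 in female TCPOBOP pools against 4.77 and 6.20 in vehicle pools, so that the pools overlapped slightly. In males it was 9.50 and 9.78 in TCPOBOP pools against 4.71 and 4.44 in vehicle pools. The change was 0.28 ± 0.17 in females (adjusted p = 0.568) and 1.08 ± 0.17 in males (adjusted p = 0.0013), a difference of −0.79 ± 0.24 (adjusted p = 0.267). Without male TCPOBOP pool 1 the male change was 1.10, and the call was lost. The 4 next sites of this kind had male changes of 0.83 to 1.22 and female changes of 0.45 to 0.76, and each of those calls was lost without male TCPOBOP pool 1.

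**Figure D4:**
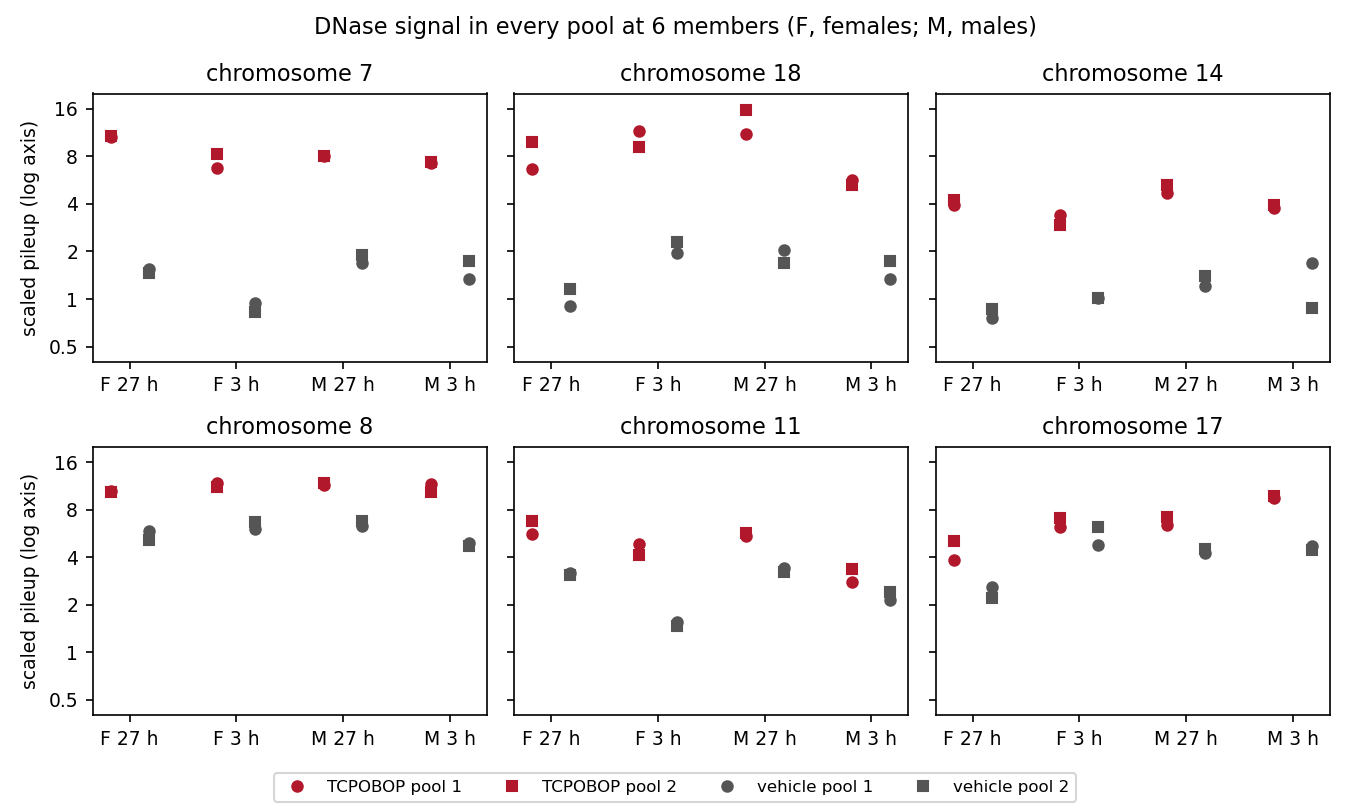
Level of 6 members in each of the 16 pools (scaled summit pileup, log axis), with TCPOBOP pools left of vehicle pools in each sex and time. At the sites on chromosomes 7, 18, 14 and 8 every TCPOBOP pool lay above every vehicle pool of its experiment, and at the chromosome 11 and chromosome 17 sites the 3 h pools separated more widely in 1 sex.

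Several of the sites with the largest 27 h changes could be tested in females alone, because a male vehicle pool had no peak at 3 h. On chromosome 4, 24547230 to 24548340, the level at 3 h was 3.83 and 4.31 in female TCPOBOP pools against 1.14 and 1.09 in vehicle pools. Male TCPOBOP pools were at 2.02 and 3.06, and 1 male vehicle pool had a peak at 0.874. The female change was 1.87 ± 0.23 (adjusted p = 3.49e-05). On chromosome 16, 44270558 to 44271727, the female change was 1.90 ± 0.28 (adjusted p = 0.000393) and on chromosome 11, 105236971 to 105237891, it was 2.08 ± 0.31 (adjusted p = 0.000403). Both of those calls were lost without female vehicle pool 1, where the changes were 1.62 and 1.87. At 27 h the changes at these 3 sites were 2.35 to 2.66 in females and 2.31 to 3.06 in males. Of the other members with the largest 27 h changes, chromosome 4, 57898742 to 57900141, had an averaged 3 h change of 1.01 (adjusted p = 0.000896). It was called in females (1.37 ± 0.25, adjusted p = 0.00273) and not in males (0.65 ± 0.25, adjusted p = 0.251). At chromosome 8, 71449915 to 71451251, the female change was 1.01 ± 0.25 (adjusted p = 0.0466), and at chromosome 10, 60622955 to 60624154, it was 0.80 ± 0.21 (adjusted p = 0.0720).

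A minority of the members tested in the average had a 3 h change below 0. This was so in 15 of the 333, with 318 above 0 (95.5%), against 44.2% of all regions above 0. The 5 lowest ranged from −0.28 to −0.16, none of them called by limma (adjusted p = 0.524 to 0.744). The lowest was at chromosome 5, 34561141 to 34561869. At 27 h its level was 1.53 and 2.12 in female TCPOBOP pools against 0.972 and 0.813 in vehicle pools, and 1.98 and 3.17 in male TCPOBOP pools against 1.28 and 1.62 in vehicle pools. At 3 h it was 2.18 and 1.49 in female TCPOBOP pools against 2.22 and 2.56 in vehicle pools, and 1.76 and 2.33 in male TCPOBOP pools against 2.22 and 2.29 in vehicle pools. The drug pools were thus above the vehicle pools at 27 h and not at 3 h.

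At chromosome 13, 21325555 to 21326534, a stronger site, the level at 27 h was 6.10 and 6.64 in female TCPOBOP pools against 4.14 and 3.78 in vehicle pools, and 5.92 and 5.83 in male TCPOBOP pools against 3.30 and 4.05 in vehicle pools. At 3 h it was 5.11 and 7.56 in female TCPOBOP pools against 7.13 and 8.43 in vehicle pools, and 8.10 and 9.44 in male TCPOBOP pools against 8.88 and 9.35 in vehicle pools. Here the vehicle pools of the 27 h experiments stood below all other pools, and the TCPOBOP pools at 27 h were below the vehicle pools at 3 h. The difference between times in vehicle cannot be told apart from that between experiments. At chromosome 9, 66872765 to 66873709, the averaged 3 h change was −0.16 (adjusted p = 0.744), with 27 h changes of 1.24 in females and 1.01 in males.

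Many members had another member close by. Of the 500, 139 (27.8%) were within 20 kb of another member, against 24 of 260 (9.23%) of the regions less open at 27 h. The lists differ in length, and the shares were not adjusted for it. No share was taken for an equally long list of eligible regions. There were 361 single members, 45 pairs, 11 groups of 3 and 4 groups of 4. Gaps inside groups had a median of 4756 bp, and 14 of the 79 were under 1000 bp. In 33 groups at least 2 members could be tested in the averaged 3 h comparison. All tested members were called higher in 11 of these, some in 14 and none in 8.

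The group with the largest early changes lay on chromosome 7, 26672712 to 26682863, and all 3 members tested there were called in both sexes. Besides the site already given, 26679889 to 26680779 changed at 3 h by 2.38 ± 0.20 in females (adjusted p = 1.79e-08) and 2.12 ± 0.19 in males (adjusted p = 6.43e-07). At 26674300 to 26675132 the change was 1.95 ± 0.20 in females (adjusted p = 1.47e-06) and 1.29 ± 0.20 in males (adjusted p = 0.0013), and the male call was lost without TCPOBOP pool 1 or with the spread from the 4 male libraries alone. The last member, 26681892 to 26682863, had a level of 6.07 and 7.67 in female TCPOBOP pools at 3 h against 0.894 in 1 vehicle pool and no peak in the other. In males it was 5.54 and 4.89 in TCPOBOP pools at 3 h, with no peak in either vehicle pool. All 4 sites of this group were thus higher in every TCPOBOP pool at 3 h than in any vehicle pool of the same experiment that had a peak.

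On chromosome 12, 82027532 to 82033034, the 4 members differed at 3 h. At 82030984 to 82031685 the level was 10.5 and 10.7 in female TCPOBOP pools against 5.25 and 4.41 in vehicle pools, and 6.05 and 7.56 in male TCPOBOP pools against 2.56 and 3.43 in vehicle pools. The change was 1.14 ± 0.17 in females (adjusted p = 0.000331) and 1.19 ± 0.17 in males (adjusted p = 0.000443). The male call was lost with the spread from the 4 male libraries alone, where the adjusted p was 0.0540. Its neighbour 82031985 to 82033034 had an averaged change of 0.48, and 82027532 to 82027872 one of 0.30 (adjusted p = 0.298). At 27 h all 4 had changes of 0.71 to 1.20 in females and 0.66 to 1.68 in males.

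On chromosome 6, members formed a group of 4 at 108398124 to 108422547 and a group of 3 at 108456013 to 108485290. At 108415903 to 108416882 the 3 h level was 6.12 and 6.50 in female TCPOBOP pools against 2.35 and 2.75 in vehicle pools, and 3.96 and 4.11 in male TCPOBOP pools against 1.88 and 2.08 in vehicle pools. The change was 1.31 ± 0.18 in females (adjusted p = 0.000116) and 1.03 ± 0.18 in males (adjusted p = 0.00385). At 108456013 to 108457306 it was 1.35 ± 0.20 in females (adjusted p = 0.000393) and 0.82 ± 0.20 in males (adjusted p = 0.0537). The site at 108408106 to 108409162 was called in females (1.12 ± 0.26, adjusted p = 0.0258) and not in males (0.60 ± 0.26, adjusted p = 0.323). At 108398124 to 108399151 the female change was 0.18 ± 0.21 (adjusted p = 0.803), although the 27 h changes there were 0.92 in females and 0.90 in males.

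On chromosome 16, 93324752 to 93369356, 1 of 3 members tested in the average was called. At 93324752 to 93325888 the change was 0.38 ± 0.21 in females (adjusted p = 0.505) and 0.97 ± 0.21 in males (adjusted p = 0.0232). At 93342070 to 93343277 the 27 h changes were 1.93 in females and 1.42 in males, and the male 3 h change was 0.75 ± 0.24 (adjusted p = 0.168). The other groups with all of their tested members called in the average included 3 members on chromosome 4, 117650418 to 117670565, 2 of them tested with changes of 0.83 and 0.80, and a pair on chromosome 2, 131948501 to 131957808, with changes of 0.74 to 1.17.

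**Figure D5:**
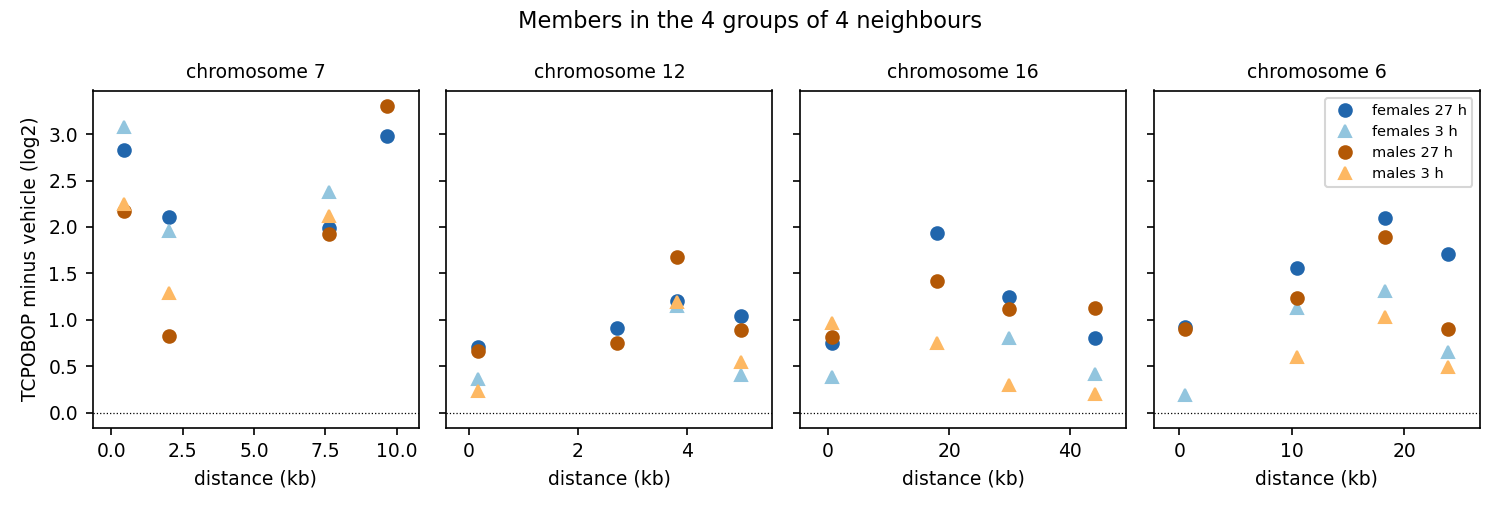
Change of each member in the 4 groups of 4 (log2, TCPOBOP minus vehicle), in females and males at 27 h and 3 h, against distance from the start of the group in kb. All 3 tested members of the chromosome 7 group were called higher at 3 h in both sexes, while the chromosome 16 group had 1 of 3 called in the average; a missing point is a member without a peak in some pool.

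Regions near a member that were not members themselves were also called higher at 3 h at a larger share than regions elsewhere. Within 20 kb of a member, 433 other regions could be tested in females and 13 were called higher (3.00%), against 0.50% of 21999 regions elsewhere. In males 14 of 418 were higher (3.35%), against 0.325% elsewhere. In the average 34 of 360 were higher (9.44%), against 0.902% elsewhere, and the median change was 0.13, against −0.03 elsewhere. These counts were read with no test, and a neighbour can be a region that missed the rule narrowly.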

How the data were processed

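DNase-seq peak lists of 16 liver pools, 1 list per pool, were used as deposited. Per the file headers, the authors ran MACS 2.1.0.20150731 separately on every pool, without a control library, at a q-value of 0.05, and tags were shifted by 100 bp and extended to 200 bp. The submitters' processing notes name Bowtie, with no version, and build mm9. The deposited pileup is a signal that counts extended tags at a peak summit, left unscaled by the authors. The deposited fold enrichment is a ratio of pileup to local background within 1 library, and the lists also hold −log10 p-values and −log10 q-values, per the file headers. All duplicate tags were kept, per the file headers. The numbering of the deposited peaks skips 458 to 552 numbers in each list, and the sources used here do not say why. In 1 list of the female 27 h TCPOBOP pools the heading names the female 3 h experiment. Its command line and peak names match its label, by which it was used.

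Peaks overlapping by 1 bp or more were merged over all lists. The highest pileup of a region in a pool was scaled to 1000000 total tags, put on the log2 scale and centred on the median of regions present in all 16 lists. Regions with a value in every pool of a 3 h comparison were fitted with limma 3.58.1 in R 4.3.3, with 1 mean per group, a prior variance that followed the mean, and the spread pooled over all 16 libraries, and called at an adjusted p of 0.05 or less. The averaged and female minus male changes were contrasts of the same fit. The fit was tested on simulated data. No value was imputed. Tables were handled in Python 3.11.15 with pandas 2.3.3 and numpy 2.4.6.

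Pools carry numbers in the labels, and nothing there ties equal numbers to shared mice or days. P-values measure the spread between these pools. Deviations of equally numbered pools correlated at −0.0333 to 0.0297 over 18443 regions, and the numbers were not taken to pair pools. The members and the rules for naming them were chosen with earlier results of these data known. Regions were named as the 10 with the largest 27 h change. Next came the 10 with the lowest averaged p at 3 h among members called in both sexes. Further ones were the 5 with the lowest p called in each sex and not in the other, and the 5 with the lowest averaged 3 h change. The 3 nearest the threshold on each side, the 5 weakest and the 5 strongest in vehicle were also named. So were the largest groups within 20 kb. Other regions named were chosen after their values were seen.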

Additional observations from a re-analysis of the deposited data

How the results depend on the processing

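In every alternative that was run the median 3 h change of the members stayed positive in both sexes, and with 1 exception no member was called lower. The members called higher at 3 h depended most on the measure. With the deposited fold enrichment in place of pileup, 10 were higher in females, 4 in males and 23 in the average, 1 was lower in the average, the medians were 0.24 in females and 0.17 in males, and the choice at 27 h gave 29 members. The cause was not tested. Counts of higher calls in this section are of members alone, without the share over all regions. In males, 106 of 553 members chosen anew were higher without centring, 30 with the spread from the 8 libraries at 3 h, 10 with the spread from the 4 male libraries, and 27 with a prior variance that did not follow the mean. Leaving out 1 pool gave 50 to 87 higher in females, 11 to 46 in males, 118 to 152 in the average and 0 lower in each. It gave medians of 0.59 to 0.68 in females and 0.41 to 0.48 in males, and 500 to 641 members. Of the 500 members, 425 to 475 were chosen again when 1 pool at 27 h was left out. The rule kept 312 members with a pseudocount of 0.5 and 260 at a difference of 0.8. With the pool number as a replicate block, 119 members were higher in females, 53 in males and 146 in the average. The alternatives of fitting on the 8 libraries at 3 h, of summits within 200 bp and of keeping the 500 members without centring were chosen after seeing the data. Among the regions named, 20 of 404 refits lost a call and 0 changed direction. Those 404 included refits of regions that had no call to lose. They left out fold enrichment, the pseudocount and the stricter peak threshold. Refits that altered only the spread, the prior variance or the replicate block kept the same change, so its direction could not differ there. Weak sites limit all counts, since 78 members could be tested in neither sex at 3 h.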

Other observations

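Members were found on every autosome. They were 3.17% of the eligible regions on chromosome 6 (45 of 1421) and 1.19% on chromosome 17, the highest and the lowest share. The TCPOBOP pools of each sex gave similar values at 3 h when each was set against the mean of its vehicle pools, with member medians of 0.59 for pool 1 and 0.68 for pool 2 in females and 0.48 and 0.45 in males, against −0.03 to −0.02 over all regions. In vehicle pools the female minus male difference of members went both ways. It ran from −1.81 to 1.47 at 27 h, with a median of −0.01 (0.07 over eligible regions), and from −1.81 to 1.61 at 3 h, with a median of 0.09 (0.02 over eligible regions).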
